A study of Mus musculus with 16 samples.

Results

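The 33 genes described here mark the blood vessels of the brain: 23 genes of the endothelium and its barrier and 10 genes of the mural cells, the pericytes and smooth muscle cells that wrap the endothelial tube. They were given as a list of gene symbols, and each symbol was matched to its row in a table of 49315 genes. All 33 had a row, and all 33 were among the 17469 genes that passed the filter on low counts. RNA was sequenced from the hippocampus of 16 mice in 4 groups of 4: wild type fed the standard diet, Kcna1 knockout fed the standard diet, wild type fed the ketogenic diet, and Kcna1 knockout fed the ketogenic diet. The product of Kcna1 is part of a potassium channel of axons, and mice without it have seizures. A ketogenic diet is rich in fat and poor in carbohydrate. The labels give no strain, age, sex, length of the diet or kind of knockout allele, and libraries are named here by their animal tags.

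Brain endothelial cells form the blood-brain barrier: tight junctions seal the gaps between them, few vesicles cross them, and transporters decide what enters or leaves the tissue. Pericytes sit on capillaries and help to keep that barrier closed, while smooth muscle cells ring arterioles and set their width. Seizures are known to open the barrier, and the glucose and ketone bodies used by the brain both pass through endothelial transporters. In RNA from whole tissue, fewer cells of a type and less RNA per cell cannot be told apart, which holds for every value below.

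Library totals ranged from 13440230 to 22309504 counts. Kcna1 was at 107 to 130 CPM (counts scaled by the effective library size) in the 8 wild type libraries and at 43.4 to 47.2 CPM in 7 of the 8 knockout libraries. KC888LL, labelled knockout on the standard diet, was at 82.0 CPM, outside both ranges, and is used under its label. The hippocampal genes Prox1, Wfs1 and Neurod6 were present in every library, at 65.0 CPM or more. Y-linked expression marked KC890RL, KC872RL, KC873RR and KC846L and no knockout library on the ketogenic diet. Further features of the libraries touch the results: microglial genes were highest in KC872RL and KC873RR, with a summed level of 544 CPM in each against 240.0 to 295 CPM in the other 14 libraries, choroid plexus markers summed to 1034 CPM in KC844RR and 1056 CPM in KC894RLL against 30.3 to 549 CPM in the other 14, and the astrocyte gene Gfap reached 2018 CPM in KC913RR and 2327 CPM in KC872RL.

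Per length of transcript, the most abundant of the 33 genes was Itm2a, which encodes a small membrane protein of endothelial cells, at a median of 20.0 RPKM (reads per kilobase, scaled to depth as CPM are) over the 16 libraries. The pericyte genes Vtn (vitronectin) and Rgs5 (a regulator of G protein signalling) followed at 19.4 and 17.4 RPKM. The junction protein gene Tjp1, which other cells of the brain also express, stood at 15.4 RPKM, Cldn5 at 12.6 RPKM and Mfsd2a at 11.6 RPKM. The lowest were Emcn at 0.702 RPKM, Icam2 at 0.657 RPKM, Anpep at 0.570 RPKM and Des at 0.395 RPKM. The ranges of neighbours in this order overlapped over the 16 libraries: Itm2a ran from 9.67 to 27.8 RPKM and Vtn from 16.5 to 23.2 RPKM.

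For 4 of the genes the stretch of DNA around the transcription start is shown. Itm2a, Slco1a4 and Tek were at their lowest of all 16 libraries in KC913RR, a knockout library on the ketogenic diet, and Kdr was at its highest there. In that library 9 of the 33 were at their lowest and 4 at their highest. The genes shown are examples of these, picked after the values were seen. The windows are from RefSeq on GRCm38.p6 and run from 250 bases before to 50 bases after the annotated start, at chrX:107403311-107403610 (minus strand) for Itm2a, chr6:141856171-141856470 (minus) for Slco1a4, chr4:94739039-94739338 (plus) for Tek and chr5:75978406-75978705 (minus) for Kdr. Capitals mark the motif CAGGAAG or its reverse complement CTTCCTG, a core bound by ETS factors such as Erg.
Itm2a: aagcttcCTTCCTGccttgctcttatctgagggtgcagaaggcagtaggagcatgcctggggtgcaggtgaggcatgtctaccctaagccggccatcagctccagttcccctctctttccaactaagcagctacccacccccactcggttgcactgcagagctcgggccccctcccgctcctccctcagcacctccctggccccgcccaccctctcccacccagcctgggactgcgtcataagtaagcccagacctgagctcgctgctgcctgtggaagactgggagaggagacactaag
Slco1a4: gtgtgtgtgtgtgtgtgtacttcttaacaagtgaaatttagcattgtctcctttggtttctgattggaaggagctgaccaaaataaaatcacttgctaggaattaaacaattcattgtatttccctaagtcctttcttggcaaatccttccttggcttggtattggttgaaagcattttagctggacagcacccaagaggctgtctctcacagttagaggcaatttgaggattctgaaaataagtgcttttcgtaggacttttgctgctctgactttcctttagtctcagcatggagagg
Tek: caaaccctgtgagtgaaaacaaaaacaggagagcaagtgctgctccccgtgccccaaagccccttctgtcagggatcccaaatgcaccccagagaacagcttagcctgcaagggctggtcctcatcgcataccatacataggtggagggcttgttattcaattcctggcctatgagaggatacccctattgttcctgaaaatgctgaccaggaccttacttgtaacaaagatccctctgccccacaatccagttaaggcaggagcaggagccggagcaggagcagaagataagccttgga
Kdr: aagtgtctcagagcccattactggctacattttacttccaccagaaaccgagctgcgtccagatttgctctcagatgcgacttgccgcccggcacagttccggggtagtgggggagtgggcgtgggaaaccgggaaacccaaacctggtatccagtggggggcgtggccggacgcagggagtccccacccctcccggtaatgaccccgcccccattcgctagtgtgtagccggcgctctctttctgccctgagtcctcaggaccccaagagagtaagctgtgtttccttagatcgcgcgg
RefSeq windows were at hand for 22 of the 33 genes, 26 windows in all, since some genes have more than 1 start. CAGGAAG stood on either strand in 3 of the 26 (11.5%), those of Itm2a, Emcn and 1 of Erg, and in 13.3% of all 32851 windows. The motif was counted as letters in these windows, with no measure of binding.

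**Figure D1:**
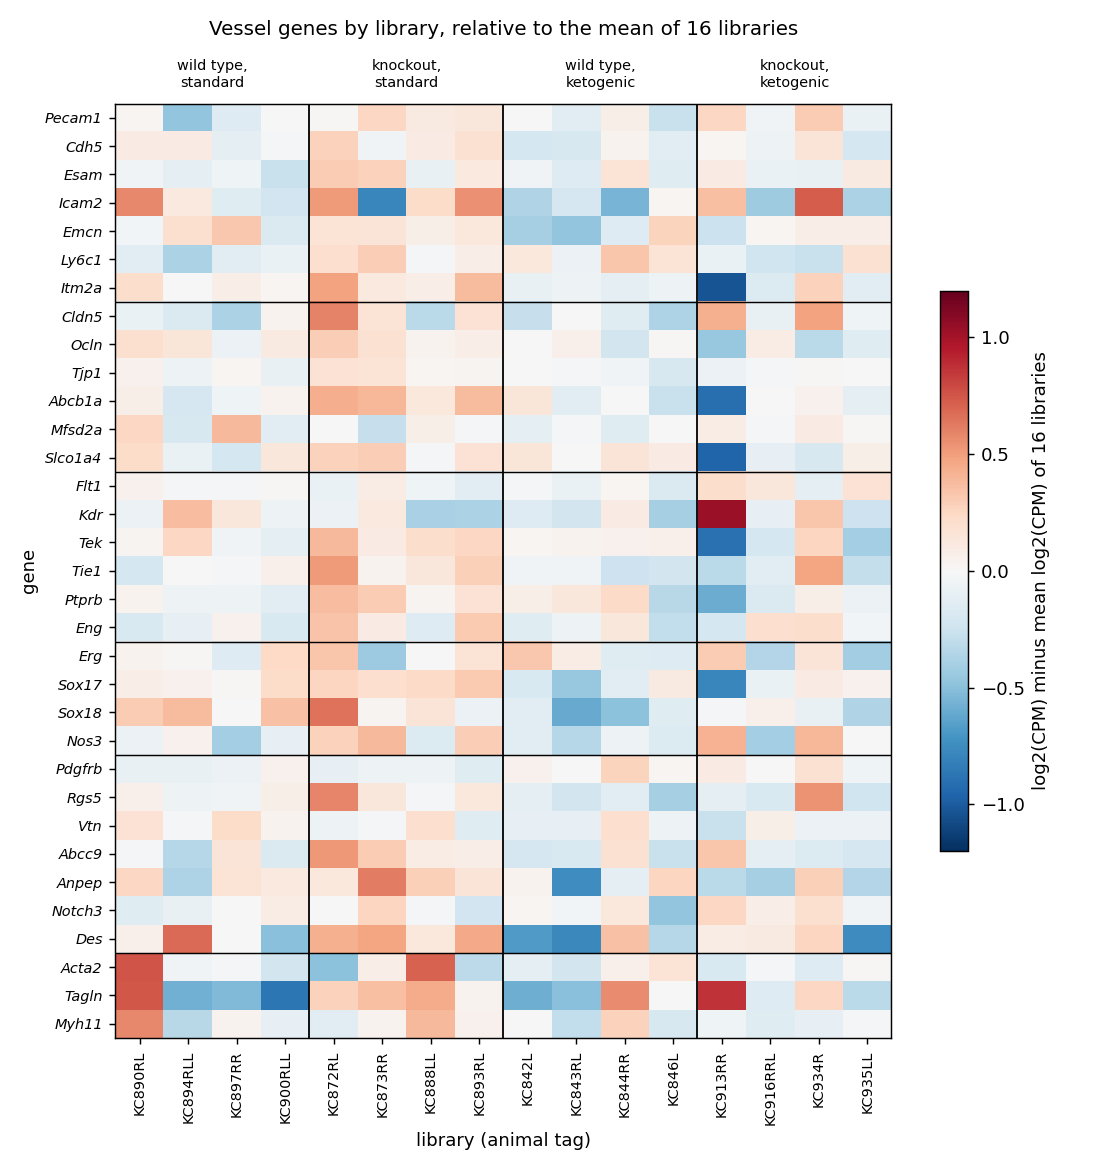
Level of each of the 33 vessel genes (rows, by role) in each of the 16 libraries (columns, by group), as the log2 difference from the gene's mean over the libraries. KC872RL (knockout, standard diet) held the highest level of 15 of the 33 genes, and KC913RR (knockout, ketogenic diet) held the lowest level of 9 and the highest level of 4. The shares of all genes with such ranks were not counted.

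No vessel gene passed the test in the knockout against the wild type on the standard diet. By edgeR's quasi-likelihood test, 0 of 33 were called at an adjusted p under 0.05, as were 0.00572% of all genes tested. DESeq2 and limma-voom also called 0, against 1.01% and 0.00572% of all genes. At an unadjusted p under 0.05, 7 of the 33 were higher in the knockout and 0 lower, against 7.64% and 6.69% of all genes. The log2 difference was above 0 in 26 of the 33 and in 51.1% of all genes, and its median was 0.16 over the 33. Levels of the 2 genotypes did not overlap in 2 of the 33, Ly6c1 and Abcb1a, both higher in the knockout, beside 5.86% of all genes. Without KC872RL the median was 0.12 and 2 of the 33 were under that unadjusted p in either direction, beside 7.34% of all genes, and without both KC872RL and KC873RR 0 of 33 were, beside 2.86%. Over the 8 libraries left out in turn the count ran from 2 to 9 of 33, and the share of all genes from 7.34% to 21.3%.

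On the ketogenic diet the same comparison of genotypes also gave 0 of 33 calls by edgeR, DESeq2 and limma-voom, against 0.0172% of all genes by edgeR and 0.189% and 0.0114% by the other tools. An unadjusted p under 0.05 was found for 3 higher and 2 lower genes, beside 5.24% and 3.97% of all genes. Differences above 0 numbered 20 of 33 (51% of all genes), with a median of 0.09 on the log2 scale. Without KC934R the median was 0.03, and without KC913RR 0 of the 33 were under the unadjusted threshold, beside 6.93% of all genes. With each library left out in turn, 0 to 5 of the 33 were under it, beside 6.59% to 13.0% of all genes.

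In the edgeR fit of all 16 libraries, the diet in the knockout gave the largest number of calls over all genes. A fit of the groups compared alone called 9 genes there and 11 for the diet in the wild type. Again 0 of 33 vessel genes were called by edgeR in the main fit, against 1.16% of all genes. The limma-voom test called 0, against 0.893% of all genes. DESeq2 called 1 of the 33, Abcb1a, with an adjusted p of 0.0243, against 3.88% of all genes, so that its share of the 33 did not exceed the background. At an unadjusted p under 0.05, 9 genes were lower and 1 higher on the ketogenic diet, against 9.1% and 7.83% of all genes. Leaving out each library in turn gave 6 (without KC872RL) to 11 of the 33 in either direction, beside 10.4% to 21.8% of all genes. The count was 4 with the Xist term, a stand-in for sex (10.6% of all genes), and 4 without both KC872RL and KC873RR (6.02%). The difference was below 0 in 27 of the 33 genes and in 48.5% of all genes, with a median of -0.15 on the log2 scale. Levels on the 2 diets did not overlap in 4 of the 33 (Abcb1a, Tjp1 and Sox17 lower, Pdgfrb higher), beside 6.39% of all genes.

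In the wild type the diet gave 0 of 33 calls by edgeR, DESeq2 and limma-voom, against 0.0114% of all genes by edgeR and 0.0687% and 0.0114% by the other tools. An unadjusted p under 0.05 was found for 1 higher and 1 lower gene, against 2.44% and 3.01% of all genes. With each library left out in turn, 2 to 4 of the 33 (4 without KC844RR) were under it in either direction, beside 3.49% to 5.57% of all genes. A fit of the groups compared alone gave 5, beside 8.42%. The difference was below 0 in 24 of the 33 and in 50.1% of all genes, with a median of -0.06 on the log2 scale, which was -0.11 without KC844RR and -0.03 without KC890RL. Levels on the 2 diets did not overlap in 4 of the 33 (Ly6c1 higher, Itm2a, Sox18 and Rgs5 lower), beside 4.88% of all genes. The interaction, which asks whether the diet difference itself differed between genotypes, called 0 of 33 and 0% of all genes by edgeR. It placed 5 genes lower and 2 higher at an unadjusted p under 0.05, against 4.09% and 3.38% of all genes. Leaving out each of the 16 libraries in turn gave 2 (without KC893RL) to 8 of the 33 in either direction, beside 5.09% to 11.5% of all genes, and the Xist term gave 2, beside 3.35%. In each of the 4 pairwise comparisons the 95% interval of a gene's log2 difference reached a median of 0.33 to either side. The genotype and diet comparisons share groups, and their values are therefore not independent of each other.

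**Figure D2:**
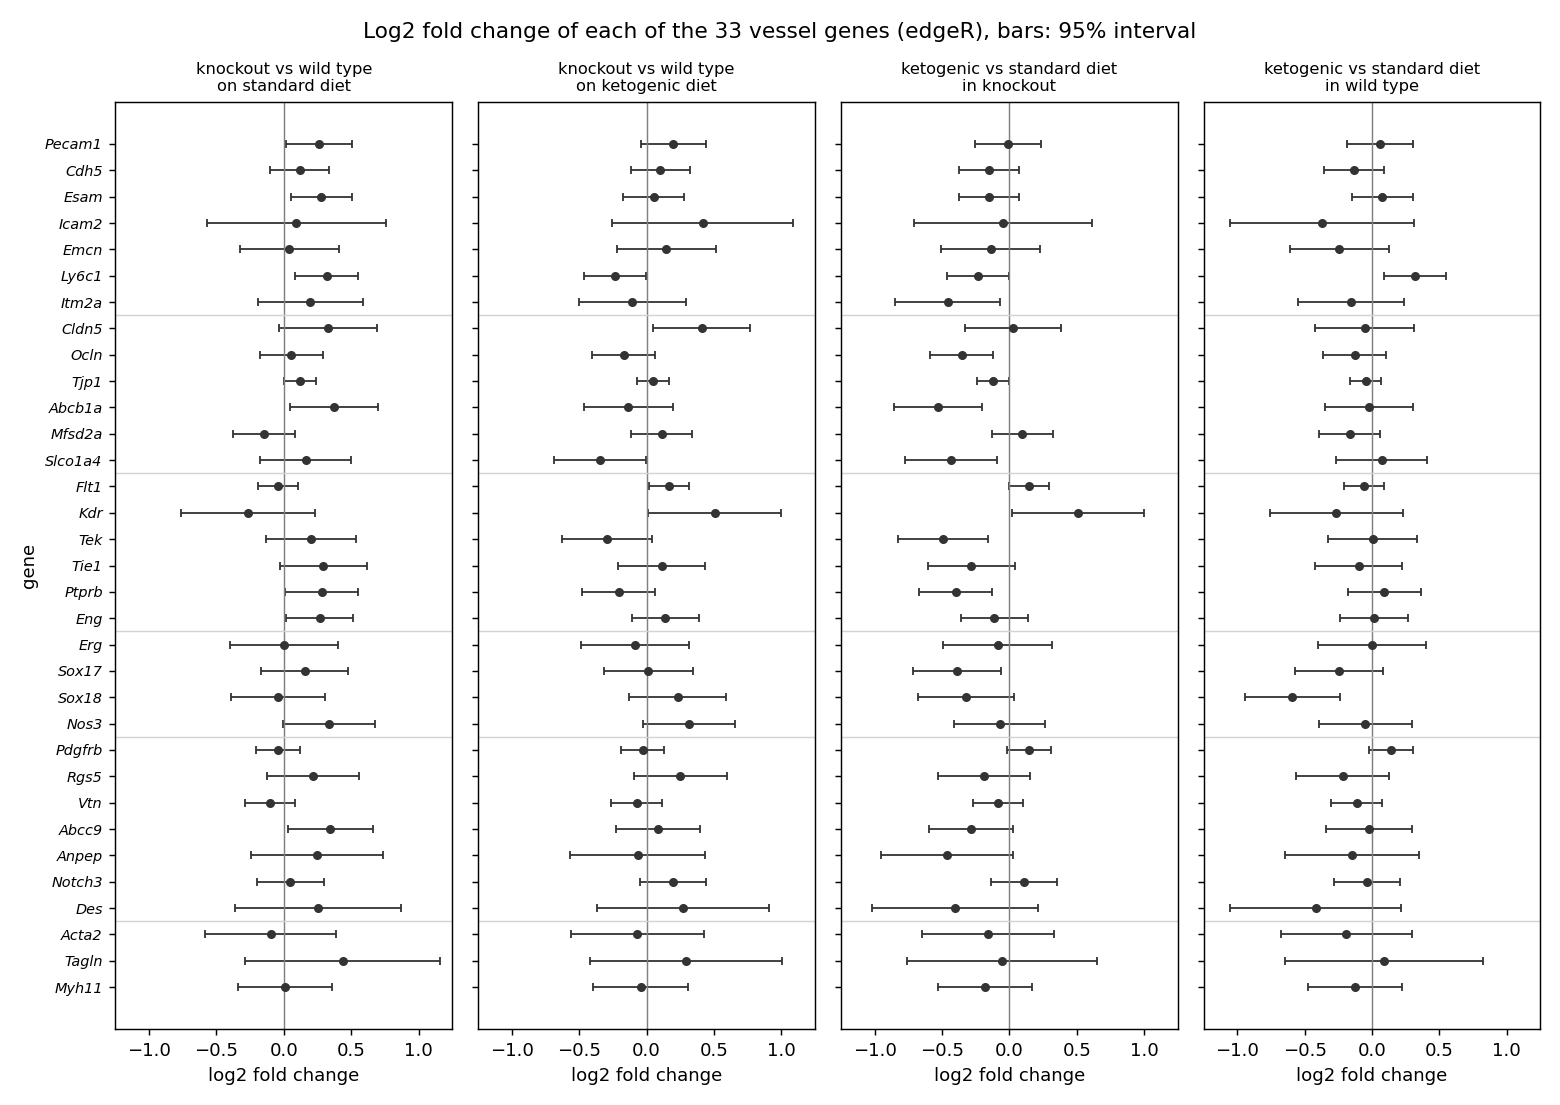
Log2 difference (x axis) of each of the 33 vessel genes, by role, in the genotype comparison on each diet and the diet comparison in each genotype, with 95% intervals from the edgeR fit. None of the 33 was called, and the diet comparison holds 27 genes below 0 in the knockout and 24 in the wild type.

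The genes of adhesion and the cell surface are Pecam1, Cdh5, Esam, Icam2, Emcn, Ly6c1 and Itm2a. Their differences were all above 0 in knockouts fed the standard diet (7 of 7, median 0.20 on the log2 scale, 3 at an unadjusted p under 0.05 beside 7.64% of all genes) and all below 0 with the ketogenic diet in the knockout (7 of 7, median -0.15, 2 at an unadjusted p under 0.05 beside 9.1%). Cdh5, the cadherin that joins endothelial cells, was at 9.95, 10.6, 11.5 and 11.5 CPM in the wild type and 10.4, 11.5, 12.2 and 13.03 CPM in knockouts fed the standard diet. With the ketogenic diet, Cdh5 levels were 9.29, 9.45, 9.88 and 11.1 CPM in the wild type and 9.28, 10.3, 10.97 and 11.99 CPM in the knockout. All 4 groups overlapped, and its log2 difference between genotypes was 0.12 ± 0.11 (SE) on the standard and 0.10 ± 0.11 on the ketogenic diet, with edgeR adjusted p of 0.656 and 0.796. These were 0.07 without KC872RL and 0.04 without KC934R.

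Ly6c1, which encodes a surface antigen carried by endothelial cells, had the smallest p of the 33 in the genotype comparison on the standard diet and in the interaction. It was at 14.00, 16.7, 16.7 and 17.2 CPM in the wild type and 18.1, 19.2, 20.9 and 22.3 CPM in knockouts fed the standard diet, and these groups did not overlap. On the ketogenic diet the wild type held 17.3, 19.9, 20.4 and 22.9 CPM and the knockout 15.1, 15.4, 17.3 and 20.6 CPM, so that the genotype with the higher mean was the other one. The log2 difference between genotypes was 0.32 ± 0.11 on standard diet (edgeR adjusted p = 0.224) and -0.23 ± 0.11 on the ketogenic diet (0.541), and the interaction was -0.55 ± 0.16 (0.654). The reads of Ly6c1 may be shared with near-identical members of its family, so its level is uncertain. Esam, an adhesion molecule of endothelial junctions, was at 11.4 ± 0.812 CPM (SD, n = 4) in the wild type and 13.8 ± 1.69 CPM in knockouts fed the standard diet, a log2 difference of 0.28 ± 0.11 (edgeR adjusted p = 0.259).

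Itm2a was at 36.5, 37.6, 44.97 and 48.5 CPM in knockouts fed the standard diet and at 16.9, 30.9, 31.8 and 42.1 CPM in the knockout on the ketogenic diet. The lowest of these was KC913RR, and the highest of the other 3 libraries on the ketogenic diet lay within the range of the standard diet. The log2 difference with the diet was -0.46 ± 0.18 (edgeR adjusted p = 0.226) and -0.26 without KC913RR. In the wild type Itm2a was at 34.5, 35.2, 36.6 and 40.01 CPM on the standard and 32.2, 32.5, 33.1 and 33.3 CPM on the ketogenic diet, without overlap, at a log2 difference of -0.16 ± 0.18 (edgeR adjusted p = 0.997).

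Of the 6 genes of the barrier's junctions and transporters, 4 were below 0 at an unadjusted p under 0.05 with the diet in the knockout (Abcb1a, Ocln, Slco1a4 and Tjp1), beside 9.1% of all genes, and the median was -0.24 on the log2 scale. Cldn5, the main claudin of the brain's tight junctions, was at 14.3, 16.5, 17.6 and 19.2 CPM in the wild type and 14.9, 20.9, 21.00 and 28.2 CPM in knockouts fed the standard diet. It was at 14.4, 15.4, 16.9 and 18.6 CPM in the wild type and 17.5, 17.9, 24.9 and 26.02 CPM in the knockout on the ketogenic diet. The knockout groups reached higher than the wild type groups and overlapped them, with log2 differences of 0.33 ± 0.17 and 0.41 ± 0.17 and edgeR adjusted p of 0.398 and 0.492. The difference on the standard diet was 0.16 without KC872RL and 0.08 without KC872RL and KC873RR. With the diet Cldn5 differed by 0.03 ± 0.17 in the knockout and -0.05 ± 0.17 in the wild type. The first ran from -0.11 without KC888LL to 0.20 without KC872RL, and reached 0.27 under another of the alternatives.

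Abcb1a encodes P-glycoprotein, the pump that returns many drugs, antiseizure drugs among them, to the blood. It was at 27.9, 30.9, 33.00 and 33.7 CPM in the wild type and 35.1, 41.8, 42.3 and 43.3 CPM in knockouts fed the standard diet, and at 26.7, 29.4, 32.2 and 35.5 CPM and 17.1, 29.8, 32.2 and 33.3 CPM on the ketogenic diet. The knockout libraries on the standard diet lay above the wild type libraries of that diet and above the knockout libraries on the ketogenic diet. The log2 difference was 0.37 ± 0.15 for the genotype on standard diet (edgeR adjusted p = 0.296) and -0.53 ± 0.15 for the diet in the knockout (0.106), the smallest adjusted p of the 33 in any comparison. KC913RR was the lowest library, and without it the diet difference was -0.36 (edgeR adjusted p = 0.106). Without KC888LL, where 6.18% of all genes were called, Abcb1a passed the threshold, at -0.59 and 0.0480. In the wild type the diet difference was -0.02 ± 0.16, and the interaction of -0.51 ± 0.22 was not called (edgeR adjusted p = 0.654).

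Ocln, the junction protein occludin, was at 13.9, 14.3, 15.3 and 16.6 CPM on the standard and 9.83, 10.8, 12.2 and 14.4 CPM on the ketogenic diet in the knockout, overlapping in 1 library, with a log2 difference of -0.35 ± 0.11 (edgeR adjusted p = 0.121). Slco1a4, an organic anion transporter, was at 54.2, 61.8, 66.3 and 66.9 CPM and 28.2, 47.9, 50.9 and 57.3 CPM in the same groups, and the lowest value was KC913RR. Its log2 difference was -0.43 ± 0.16 (edgeR adjusted p = 0.188) and -0.26 without that library. Slco1a4 lies 15.2 Mb from Kcna1 on chromosome 6. Tjp1, the scaffold ZO-1, moved over a narrow range, with 129 ± 7.32 CPM (SD, n = 4) on the standard and 119 ± 3.03 CPM on the ketogenic diet in the knockout. These groups narrowly did not overlap (122.3 CPM in KC888LL, 121.8 CPM in KC934R), at a log2 difference of -0.12 ± 0.06 (edgeR adjusted p = 0.289).

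Mfsd2a carries lysophospholipids with omega-3 fatty acids into the brain and holds down vesicle traffic across the endothelium. It was at 23.03, 23.98, 31.3 and 34.4 CPM in the wild type and 21.7, 26.01, 26.3 and 27.6 CPM in knockouts fed the standard diet, and at 23.9, 24.2, 26.1 and 26.2 CPM and 25.9, 26.6, 27.96 and 28.2 CPM on the ketogenic diet. The widest spread was within the wild type on the standard diet, and every pair of groups overlapped. With the fat-rich diet Mfsd2a differed by 0.10 ± 0.11 in the knockout and -0.17 ± 0.11 in the wild type on the log2 scale, with edgeR adjusted p of 0.701 and 0.977. The first was 0.03 without KC873RR and the second -0.06 without KC897RR. The 95% intervals were -0.13 to 0.32 and -0.39 to 0.06. They rest on a spread shared by all groups, while the SD of Mfsd2a ran from 1.119 CPM in the knockout on the ketogenic diet to 5.563 CPM in the wild type on the standard diet.

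**Figure D3:**
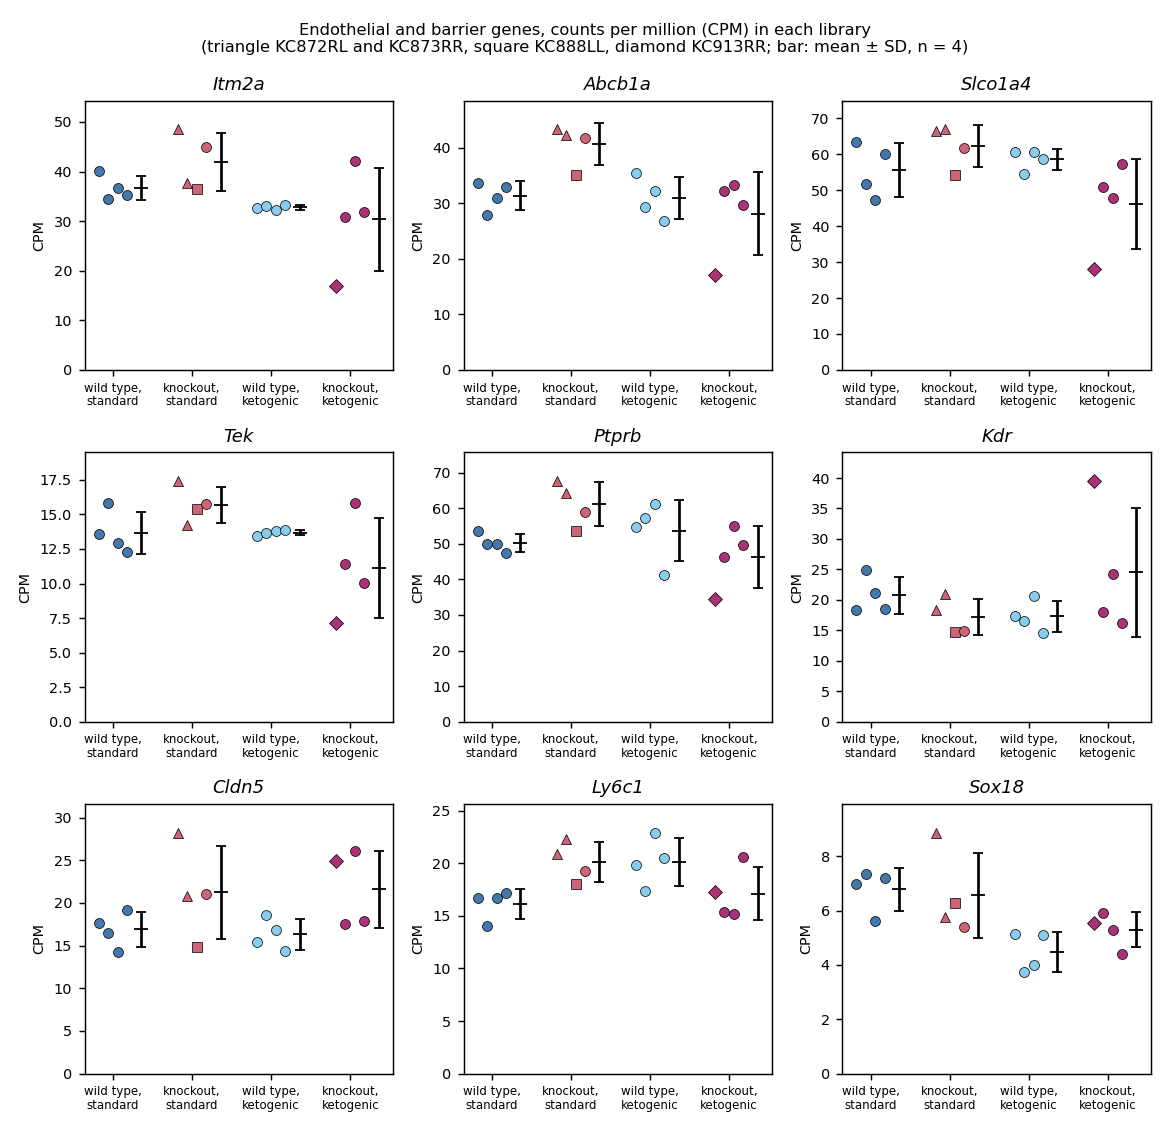
CPM (y axis, from 0) of 9 endothelial and barrier genes in each library, by group, with the mean ± SD (n = 4); triangles mark KC872RL and KC873RR, the square KC888LL and the diamond KC913RR. KC913RR lies lowest for Abcb1a and highest for Kdr among all 16 libraries, and the 4 groups overlap for Cldn5.

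Of the 6 receptors and their phosphatase, the vascular endothelial growth factor (VEGF) receptor genes Flt1 and Kdr had differences above 0 with the diet in the knockout, and Tek, Tie1, Ptprb and Eng had differences below 0. Kdr, the main signalling receptor for VEGF, was at 14.7, 14.8, 18.3 and 20.9 CPM on the standard and 16.2, 18.02, 24.3 and 39.5 CPM on the ketogenic diet in the knockout, and at 18.3, 18.5, 21.2 and 24.9 CPM and 14.6, 16.6, 17.4 and 20.6 CPM in the wild type. The value of 39.5 CPM was KC913RR and stood far above the other 15 libraries. The log2 difference with the diet in the knockout was 0.51 ± 0.23 (edgeR adjusted p = 0.281), and 0.18 without KC913RR. The genotype difference on the ketogenic diet was 0.50 ± 0.23 (0.535) and the interaction 0.77 ± 0.33 (0.654); without KC913RR they were 0.18 and 0.45.

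Flt1, which encodes a VEGF receptor that also exists as a soluble decoy, was at 59.7, 59.8, 61.2 and 62.8 CPM in the wild type and 55.3, 57.6, 58.7 and 64.7 CPM in knockouts fed the standard diet. With the ketogenic diet, Flt1 was at 53.9, 57.4, 60.1 and 61.9 CPM in the wild type and 56.02, 66.9, 68.7 and 70.4 CPM in the knockout. The 3 highest libraries of all were knockouts on the ketogenic diet and the fourth of that group lay within the wild type range. The log2 difference between genotypes on that diet was 0.17 ± 0.07 (edgeR adjusted p = 0.492), and on the standard diet -0.04 ± 0.07 (0.831). The latter was -0.088 without KC873RR and -0.009 without KC893RL.

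Tek, the receptor of the angiopoietins, was at 14.2, 15.4, 15.7 and 17.4 CPM on the standard and 7.16, 10.04, 11.4 and 15.9 CPM on the ketogenic diet in the knockout. KC913RR was the lowest and KC934R the highest of the second group, with KC934R inside the range of the standard diet. The log2 difference was -0.49 ± 0.16 (edgeR adjusted p = 0.131), -0.33 without KC913RR and -0.72 without KC934R, where it passed the threshold (edgeR adjusted p = 0.0328) as did 1.08% of all genes. Ptprb, the phosphatase that keeps Tek inactive, was at 53.5, 58.99, 64.2 and 67.5 CPM and 34.5, 46.3, 49.6 and 54.9 CPM in the same groups, a log2 difference of -0.40 ± 0.13 (0.134), and -0.28 without KC913RR. Its interaction of -0.49 ± 0.18 was not called (edgeR adjusted p = 0.654). Tie1, the partner of Tek, and Eng, a co-receptor for transforming growth factor beta, differed by -0.28 and -0.11 with the diet in the knockout and by 0.29 and 0.26 between genotypes on the standard diet, none of them called. Among knockouts on the ketogenic diet, Tie1 was at 14.4 CPM in KC934R against 8.23 to 9.42 CPM in the rest. Eng was lowest there in KC913RR, at 18.5 CPM against 20.9 to 24.8 CPM.

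Among the nuclear factors of the endothelium, Sox18 showed the smallest p of the 33 with the diet in the wild type. It was at 5.63, 6.97, 7.19 and 7.34 CPM on the standard and 3.72, 4.01, 5.10 and 5.13 CPM on the ketogenic diet, without overlap, a log2 difference of -0.59 ± 0.17 (edgeR adjusted p = 0.761). In the knockout the diet difference was -0.32 ± 0.17 (0.348), with 5.39, 5.77, 6.28 and 8.85 CPM and 4.41, 5.30, 5.55 and 5.91 CPM. The value of 8.85 CPM was KC872RL and stood above all the other knockout libraries. The related factor Sox17 was at 9.34 ± 0.316 CPM (SD, n = 4) on the standard and 7.11 ± 1.76 CPM on the ketogenic diet in the knockout, a log2 difference of -0.39 ± 0.15 (edgeR adjusted p = 0.213). KC913RR was the lowest library for Sox17, at 4.55 CPM against 7.40 to 8.40 CPM in the rest of its group. Erg, the ETS factor that keeps endothelial cells in their state, differed by -0.09 between genotypes on the ketogenic diet and by -0.09 with the diet in the knockout, and lay nearer to 0 in the other two comparisons. Nos3, the nitric oxide synthase of the endothelium, was higher by 0.33 ± 0.16 and 0.31 ± 0.16 in the knockout on the 2 diets, with edgeR adjusted p of 0.359 and 0.572, so that neither was called.

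The 7 pericyte genes gave 0 calls in all 5 comparisons by edgeR, and 1 of them, Abcc9, had an unadjusted p under 0.05 in a comparison, higher in knockouts fed the standard diet, beside 7.64% of all genes. Pdgfrb, the receptor that recruits pericytes to vessels, was the steadiest of them. It was at 19.1, 19.1, 19.5 and 21.1 CPM in the wild type and 18.4, 19.01, 19.5 and 19.6 CPM in knockouts fed the standard diet, and at 20.5, 20.7, 21.1 and 24.5 CPM and 19.6, 20.3, 21.9 and 23.1 CPM on the ketogenic diet. The highest library was 1.33 times the lowest over all 16. On the ketogenic diet Pdgfrb had log2 differences of 0.15 ± 0.08 in the knockout, where the diets did not overlap, and 0.14 ± 0.08 in the wild type, with edgeR adjusted p of 0.344 and 0.951. The separation in the knockout was close to a tie, with KC873RR at 19.58 CPM on the standard and KC935LL at 19.62 CPM on the ketogenic diet. In the wild type the difference was 0.07 without KC844RR.

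Rgs5 was at 78.4, 79.5, 85.1 and 85.8 CPM in the wild type and 80.3, 89.2, 89.8 and 123 CPM in knockouts fed the standard diet, and at 62.1, 69.95, 74.95 and 75.7 CPM and 69.4, 71.9, 75.4 and 119 CPM on the ketogenic diet. A single knockout library on each diet, KC872RL at 123 CPM and KC934R at 119 CPM, stood above the rest. The log2 difference between genotypes was 0.22 ± 0.16 on the standard and 0.25 ± 0.16 on the ketogenic diet, with edgeR adjusted p of 0.573 and 0.653. It was 0.07 on the standard diet without KC872RL and 0.03 on the ketogenic diet without KC934R. Abcc9, a subunit of the potassium channels of pericytes, was at 8.48 ± 1.26 CPM (SD, n = 4) in the wild type and 10.8 ± 1.58 CPM in knockouts fed the standard diet, a log2 difference of 0.35 ± 0.15 (edgeR adjusted p = 0.304). It lies 15.9 Mb from Kcna1. Vtn, Notch3, Anpep and Des differed by -0.10, 0.05, 0.25 and 0.25 in that comparison and by -0.08, 0.11, -0.46 and -0.40 with the diet in the knockout.

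The 3 smooth muscle genes encode the contractile machinery of arteriole walls: Acta2 an actin, Tagln the actin-binding transgelin and Myh11 a myosin heavy chain. Acta2 was at 5.36, 6.06, 6.12 and 10.5 CPM in the wild type and 4.43, 5.01, 6.58 and 10.2 CPM in knockouts fed the standard diet, and at 5.34, 5.79, 6.48 and 6.97 CPM and 5.49, 5.58, 6.13 and 6.28 CPM on the ketogenic diet. Tagln was at 1.04, 1.28, 1.32 and 3.20 CPM, 1.97, 2.31, 2.45 and 2.60 CPM, 1.27, 1.35, 1.91 and 2.83 CPM and 1.53, 1.72, 2.27 and 3.48 CPM in the same order of groups. KC890RL, a wild type library, and KC888LL, a knockout library, both on the standard diet, held the highest levels of Acta2 (10.5 and 10.2 CPM) and Myh11 (15.1 and 13.3 CPM). The difference of Acta2 between genotypes on the standard diet, -0.10 ± 0.23 on the log2 scale, was 0.17 without KC890RL and -0.40 without KC888LL. No smooth muscle gene was called in any of the 5 comparisons by edgeR, and 0 had an unadjusted p under 0.05.

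**Figure D4:**
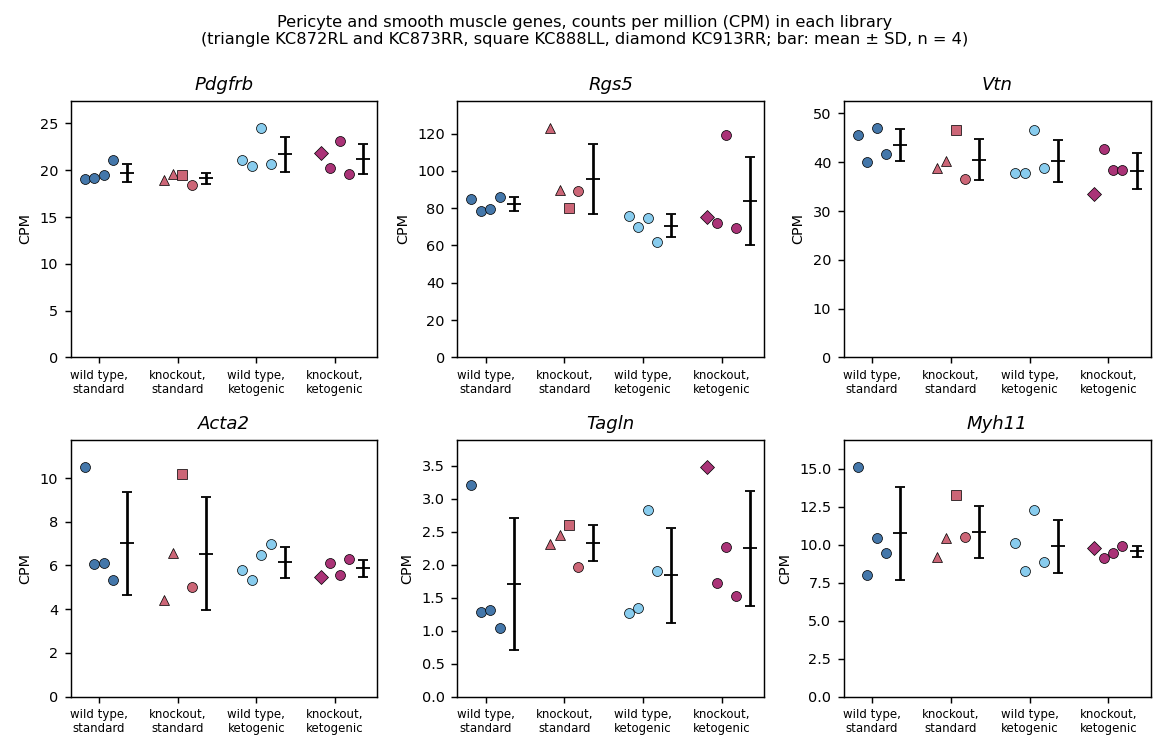
CPM (y axis, from 0) of 6 pericyte and smooth muscle genes in each library, by group, with the mean ± SD (n = 4); triangles mark KC872RL and KC873RR, the square KC888LL and the diamond KC913RR. Pdgfrb stays between 18.4 and 24.5 CPM in all 16 libraries, while 2 libraries stand high for Acta2 and 2 others for Rgs5.

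KC913RR lay below all 3 other knockout libraries on the ketogenic diet in 13 of the 33 genes and above all 3 in 7. Such counts were not particular to it: KC934R was the highest of the same group in 17 genes, KC844RR and KC872RL were the highest of theirs in 17 and 16, and KC888LL the lowest of its group in 15. How often the same ranks occur over all genes was not counted, so they are not read as a trait of vessel genes. In KC913RR, Slco1a4 was at 28.2 CPM against 47.9 to 57.3 CPM, Abcb1a at 17.1 CPM against 29.8 to 33.3 CPM, and Flt1, Nos3 and Tagln were at their highest of all 16 libraries. Genes outside the 33 also stood apart in that library. Its oligodendrocyte markers summed to 1870 CPM against 2477 to 3495 CPM in the rest of its group, and its astrocyte markers to 3049 CPM against 1269 to 2259 CPM. Prox1, Wfs1 and Neurod6 summed to 635.5 CPM against 402.1 to 487.1 CPM. Genes of the vascular basement membrane summed to 822.4 CPM against 656.4 to 755.7 CPM. Choroid plexus markers were lowest there, while microglial, neuron, fibroblast and red blood cell markers lay within the range of the group. The part of these genes and markers in its vessel gene values was not tested. Angpt2, the angiopoietin that vessels release when they remodel, was at 9.43 CPM against 1.18 to 1.55 CPM in the other 3. Vegfa, the ligand of Flt1 and Kdr, was at 118 CPM against 54.6 to 71.4 CPM, and its co-receptor gene Nrp1 at 128 CPM against 96.2 to 100.5 CPM. With the diet in the knockout, Angpt2 differed by 1.19 ± 0.54 on the log2 scale with KC913RR and by -0.13 without it, and Vegfa by 0.63 ± 0.19 with it and 0.33 without it. This library, Angpt2 and Vegfa were singled out after their values were seen.

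A wider list of 60 other vessel genes, chosen with earlier results of these data known, held 58 that were tested. Of these, 0 were called by edgeR in the genotype comparisons, with the diet in the wild type or in the interaction, and 2 were called lower with the ketogenic diet in the knockout, beside 1.16% of all genes. At an unadjusted p under 0.05, 6 of the 58 were higher and 5 lower for the genotype on the standard diet, beside 7.64% and 6.69% of all genes, and 3 and 9 on the ketogenic diet, beside 5.24% and 3.97%. For the diet these counts were 8 and 8 in the knockout, beside 7.83% and 9.1% of all genes, and 2 and 2 in the wild type, beside 2.44% and 3.01%. In the interaction they were 4 and 6, beside 3.38% and 4.09% of all genes. Their median log2 difference was between -0.07 and 0.03 in the 5 comparisons. Of 10 genes of the vascular basement membrane, all tested, 0 were called by edgeR in any comparison, with medians between -0.06 and 0.17. Their unadjusted p was under 0.05 for 2 genes higher with the genotype on the ketogenic diet, 1 higher with the diet in the knockout, 2 lower with the diet in the wild type and 1 higher in the interaction. The shares of all genes in the same order were 5.24%, 7.83%, 3.01% and 3.38%.

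Slc2a1, which encodes GLUT1, the glucose transporter of the barrier endothelium and also of astrocytes, lies at chr4:119108711-119137983 (GRCm38, plus strand). It was at 117, 133, 136 and 146 CPM on the standard and 83.1, 89.6, 101 and 107 CPM on the ketogenic diet in the knockout. The groups did not overlap, and Slc2a1 fell by 0.48 ± 0.10 (SE) on the log2 scale (edgeR adjusted p = 0.0222). In the wild type it was at 89.9, 101, 115 and 117 CPM and 92.4, 93.3, 98.8 and 113 CPM, a difference of -0.09 ± 0.10 (0.997), and the interaction of -0.39 ± 0.14 was not called (0.654). The wild type difference was -0.16 without KC900RLL and -0.04 without KC897RR. On the standard diet the knockout was higher than the wild type by 0.33 ± 0.10, which was not called (0.202). Without KC888LL that difference was called (0.0311), at 0.38. With the diet, the differences of -0.43 without KC872RL, -0.47 without KC873RR and -0.42 without KC913RR were near that over all libraries but not called (edgeR adjusted p = 0.101, 0.0742 and 0.0645).

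Klf4, a transcription factor that flowing blood induces in endothelium and that other cells also express, lies at chr4:55527143-55532466 (minus strand). It was at 4.82, 5.79, 6.19 and 7.98 CPM on the standard and 2.52, 3.14, 3.37 and 3.81 CPM on the ketogenic diet in the knockout, again without overlap. It fell by 0.95 ± 0.18 (SE) on the log2 scale (edgeR adjusted p = 0.0184). The wild type held 5.34, 5.36, 5.59 and 6.19 CPM and 3.87, 3.89, 5.30 and 5.69 CPM, a difference of -0.26 ± 0.18 (0.977), and the interaction of -0.68 ± 0.25 was not called (0.654). Without KC872RL the difference was -0.95 and without KC873RR -0.80, neither of them called (edgeR adjusted p = 0.0579 and 0.0741). With Xist as a stand-in for sex in the fit, the differences were -0.43 for Slc2a1 and -0.90 for Klf4, and neither was called (0.145 and 0.115). When the fit held the groups compared alone they were -0.49 and -0.95, again not called (0.106 and 0.120).

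Markers of other cell types also differed with the diet in the knockout, the comparison that gave both calls. All 6 oligodendrocyte markers and 4 of 5 red blood cell markers were called lower by edgeR, beside 1.16% of all genes called in either direction. Their summed levels were 1870 to 3495 CPM against 4849 to 5315 CPM and 17.4 to 32.5 CPM against 65.8 to 113 CPM. All 8 microglial markers were below 0, 7 of them at an unadjusted p under 0.05, beside 9.1% of all genes, and none called. Their median was -0.70 on the log2 scale, with a smallest edgeR adjusted p of 0.0535 and sums of 240.0 to 258 CPM against 269 to 544 CPM. Astrocyte markers were below 0 in 5 of 6, 2 of them at an unadjusted p under 0.05, beside 9.1% of all genes, and none called. Their median was -0.42 on the log2 scale, with sums of 1269 to 3049 CPM against 1421 to 4057 CPM. Fibroblast markers were below 0 in 5 of 6, 2 of them at an unadjusted p under 0.05, beside 9.1% of all genes, and none called. Their sums were 52.1 to 88.7 CPM against 67.2 to 107 CPM. Choroid plexus markers were below 0 in 4 of 5, 1 of them at an unadjusted p under 0.05, beside 9.1% of all genes, and none called. Their sums were 31.4 to 52.1 CPM against 46.7 to 549 CPM. All 5 neuron markers were above 0, 1 of them at an unadjusted p under 0.05, beside 7.83% of all genes, and none called. Their median was 0.12, with sums of 5509 to 6171 CPM against 4878 to 5858 CPM. Of these markers, Kcnj13 and Folr1 of the choroid plexus were at 0 in KC913RR, and Hba-a2 of the red blood cells at 0 in KC935LL. In the genotype comparison on the standard diet, all 8 microglial markers were above 0, 6 of them at an unadjusted p under 0.05, beside 7.64% of all genes. Their median was 0.51, with sums of 269 to 544 CPM in the knockout against 256 to 295 CPM in the wild type. All 6 astrocyte markers were above 0 there (median 0.46 on the log2 scale, sums of 1421 to 4057 CPM against 1368 to 1540 CPM). Of fibroblast markers 5 of 6 were (median 0.60, sums of 67.2 to 107 CPM against 39.4 to 74.1 CPM). All 5 red blood cell markers were as well (sums of 65.8 to 113 CPM against 62.7 to 77.6 CPM). Of these, 2 astrocyte, 3 fibroblast and 1 red blood cell marker had an unadjusted p under 0.05, beside 7.64% of all genes. Neuron markers were below 0 in 4 of 5, 3 of them at an unadjusted p under 0.05, beside 6.69% of all genes. At that threshold 1 neuron marker was higher, beside 7.64%. The median of the 5 was -0.16, with sums of 4878 to 5858 CPM against 5532 to 5969 CPM. The 6 oligodendrocyte markers were above 0 in 3, and the 5 choroid plexus markers were below 0 in 5. None of these markers was called in that comparison by edgeR. In the other pairwise comparisons none was called either. For the diet in the wild type, all 6 oligodendrocyte markers were lower at an unadjusted p under 0.05 (median -0.49), beside 3.01% of all genes. For the genotype on the ketogenic diet, 5 of 6 were (median -0.47), as were 4 of 5 red blood cell markers (median -1.64), beside 3.97% of all genes. The part of these markers in the differences of the vessel genes was not tested.

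Vwf, the clotting factor stored by endothelial cells, had the smallest p of the wider list in both comparisons of genotypes. It was at 9.74, 10.6, 11.3 and 14.1 CPM in the wild type and 18.4, 33.7, 34.8 and 42.8 CPM in knockouts fed the standard diet, and at 7.33, 12.3, 13.7 and 15.03 CPM and 23.9, 26.8, 34.4 and 45.4 CPM on the ketogenic diet. The genotypes did not overlap on either diet, and the lowest knockout library was KC888LL, whose Kcna1 level stood apart. The log2 difference was 1.50 ± 0.28 on the standard diet, a 2.83-fold difference, and 1.44 ± 0.28 on the ketogenic diet, a 2.71-fold difference. The edgeR adjusted p was 0.148 and 0.170, so neither was called, whereas DESeq2 gave 0.00103 and 0.00105 and called both. Without KC888LL edgeR called it on the standard diet as well, at 0.00254. Vwf lies at chr6:125546774-125686679 (GRCm38, plus strand), 0.95 Mb from Kcna1, so the genotype and the DNA that travels with the knockout allele cannot be told apart for this gene.

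After Klf4 and Slc2a1, the smallest p of the wider list for the diet in the knockout belonged to Nrp1. This co-receptor for VEGF and semaphorins was at 67.2, 73.3, 78.3 and 94.5 CPM on the standard and 96.2, 96.7, 100.5 and 128 CPM on the ketogenic diet, without overlap, a log2 difference of 0.43 ± 0.11 (edgeR adjusted p = 0.0637), and edgeR called it without KC888LL (0.00617). Vegfa was at 43.2, 46.2, 48.5 and 56.5 CPM and 54.6, 58.03, 71.4 and 118 CPM, overlapping, with an edgeR adjusted p of 0.121. DESeq2 called both, at 0.00932 and 0.0134. For the genotype on the standard diet, Wnt7a, a ligand that instructs brain endothelium to form the barrier, differed by -0.56 ± 0.17 on the log2 scale, with an edgeR adjusted p of 0.202, and was called without KC888LL, at -0.74 (edgeR adjusted p = 0.0155). On the ketogenic diet the Wnt receptor Fzd4 differed by -0.41 ± 0.11 (0.378) and the Notch ligand Jag1 by -0.46 ± 0.16 (0.417). With the diet in the wild type, Atp13a5 and Pgf were among the genes of smallest p, at -0.31 and 0.35, and in the interaction the smallest p belonged to Nrp1, Abcc4 and Cnn1, at 0.48, -0.49 and -2.21, none of them called. The value of Cnn1 rests on very low levels, 0.0748 to 0.176 CPM in the knockout libraries on the ketogenic diet.

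**Figure D5:**
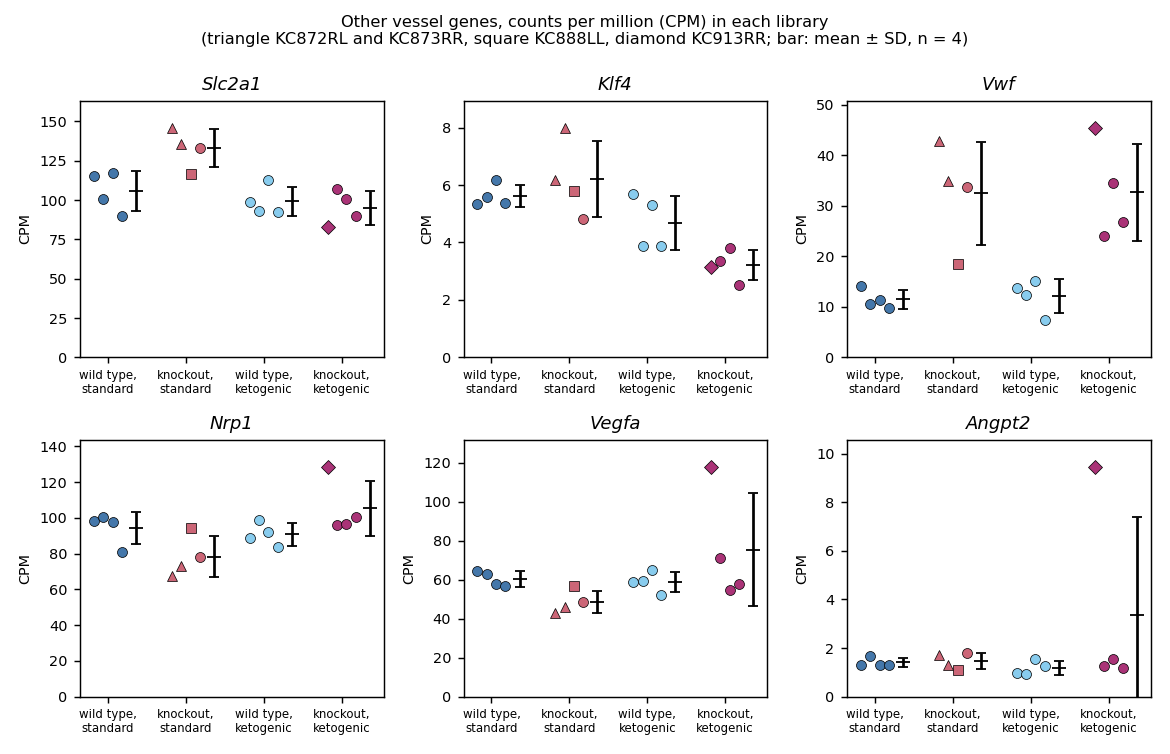
CPM (y axis, from 0) of 6 vessel genes outside the 33 in each library, by group, with the mean ± SD (n = 4; 1 bar is clipped at 0); triangles mark KC872RL and KC873RR, the square KC888LL and the diamond KC913RR. Slc2a1 and Klf4 lie lower in every knockout library on the ketogenic diet than in every knockout library on the standard diet, Vwf separates the genotypes on both diets, and Angpt2 stands at 9.43 CPM in KC913RR.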

How the data were processed

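RNA was measured in the hippocampus of 16 mice. The authors deposited whole-number counts per gene, with none of them normalized. The submitters' processing notes list mm10 and DESeq2 without a role, and the aligner, counting program, annotation and use of strand are not given in the sources used here, so overlapping and antisense genes are uncertain. Columns carry an animal tag, genotype and diet, which gave the groups, and every column was mapped.

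Genes were filtered with filterByExpr, scaled by TMM and tested in edgeR 4.0.16 (R 4.3.3) by its quasi-likelihood F test (two-sided), 1 coefficient per group over 16 libraries (12 residual degrees of freedom), with Benjamini-Hochberg adjustment over all 17469 genes. Calls are adjusted p under 0.05. Log2 differences carry standard errors derived from the F statistic. CPM used effective library sizes, and RPKM used the merged exon lengths of GENCODE M21 (GRCm38). Tested genes took at least 99.8% of each library. That the samples are separate animals rests on the tags.

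Each comparison names its called genes, or the 3 of smallest p, and Cldn5, Cdh5, Flt1, Mfsd2a, Pdgfrb, Rgs5, Acta2 and Tagln throughout; 1 gene that this rule selects is not reported here. The genes and lists were chosen with earlier results of these data known. Alternatives included DESeq2 1.42.0, limma-voom (limma 3.58.1), other scaling and filters, a term for Xist, and each library left out. The code was tested on simulated counts.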

Additional observations from a re-analysis of the deposited data

Results flagged for a closer look

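In 14 of 188 sets of 4 libraries (a gene in a group), 1 library stood apart by Dixon's test at the 95% level. Chance gives about 1 in 20 for genes picked without regard to their values. The sets also hold vessel genes outside the given list that were picked from these data, and Nrp1 and Angpt2 among them were flagged. The count can therefore not be judged against that rate. Among wild type libraries on the standard diet, KC890RL was high for Acta2 at 10.5 CPM against 5.36 to 6.12 CPM in the other 3, and for Tagln at 3.20 CPM against 1.05 to 1.32 CPM. In the same group KC894RLL was low for Ly6c1 at 14.0 CPM and high for Angpt2 at 1.68 CPM, and KC900RLL was low for Nrp1 at 80.9 CPM. Des was low in KC888LL, knockout on the standard diet, at 1.51 CPM against 1.86 to 1.92 CPM.

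Among wild type libraries on the ketogenic diet, KC844RR was high for 3 pericyte genes: Pdgfrb at 24.5 CPM against 20.5 to 21.1 CPM, Vtn at 46.6 CPM against 37.8 to 38.9 CPM and Abcc9 at 10.2 CPM against 7.47 to 7.93 CPM. Choroid plexus markers summed to 1034 CPM in that library against 30.3 to 40.2 CPM in the other 3, and red blood cell markers to 105 CPM against 42.7 to 77.8 CPM, and their part in these values was not tested. Among knockout libraries on that diet, KC934R was high for Rgs5 at 119 CPM against 69.4 to 75.4 CPM and for Anpep at 2.65 CPM against 1.65 to 1.74 CPM. Fibroblast markers summed to 88.7 CPM in KC934R against 52.05 to 65.6 CPM in the rest of that group. KC913RR was high in that group for Abcc9 at 11.3 CPM, for Nrp1 at 128 CPM and for Angpt2 at 9.43 CPM. No cause was tested for these values.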

How the results depend on the processing

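The count of called vessel genes was 0 of 33 under all alternatives run for the 2 genotype comparisons, for the diet in the wild type and for the interaction. For the genotype on the standard diet, calls over all genes numbered 1 in edgeR, 177 with DESeq2, 18 without a filter and 1016 without KC888LL. For the diet in the knockout the count of called vessel genes was 1 with DESeq2 (Abcb1a), which called 3.88% of all genes. It ranged from 0 to 1 when each library was left out (Abcb1a without KC888LL, Tek without KC934R), where 6.18% and 1.08% of all genes were called. Of 691 values of 70 gene results under alternatives other than leaving out 1 library, 673 kept their direction and side of the threshold. The 5 that changed direction were, on the log2 scale, Acta2 for the genotype on the standard diet in libraries with Xist and no Y-linked expression (0.39) and without KC872RL and KC873RR (0.12), Acta2 for the genotype on the ketogenic diet (0.004) and Cldn5 for the diet in the wild type (0.018) in libraries with Xist and no Y-linked expression, and Tagln for the diet in the knockout with the Xist term (0.14). None of these was called in any fit, and the cause was not tested. Leaving out 1 library moved the difference by more than 1.5 times or turned its direction for 34 of the 70 gene results. It moved Acta2 from -0.40 to 0.17 for the genotype on the standard diet, Pdgfrb from -0.077 to 0.035 and Slc2a1 from -0.13 to 0.007 for the genotype on the ketogenic diet. With the diet in the knockout the ranges were -0.11 to 0.20 for Cldn5, -0.31 to 0.14 for Acta2, -0.34 to 0.10 for Tagln and -0.13 to 1.48 for Angpt2, and in the wild type -0.13 to 0.013 for Cldn5, -0.30 to 0.074 for Acta2 and -0.18 to 0.59 for Tagln. For the diet in the knockout, the calls of Slc2a1 and Klf4 were also lost in libraries with Xist and no Y-linked expression (edgeR adjusted p = 0.554 and 0.504) and without KC872RL and KC873RR (0.465 and 0.419), both fits of fewer libraries, at differences of -0.39 for Slc2a1 and -0.73 for Klf4 in each. In this comparison both fits hold the same knockout libraries and are not separate checks. On the standard diet they keep KC888LL and KC893RL alone. Y-linked expression and the high microglial levels of KC872RL and KC873RR cannot be told apart there. The median over the 33 genes for the interaction, -0.07, ranged from -0.13 without KC934R to 0.02 without KC844RR. Over all genes, DESeq2 called 677 for the diet in the knockout against 202 by edgeR, and 9 were called when the fit held the groups compared alone and 7 with the Xist term. The fit without KC872RL and KC873RR, and all alternatives for genes outside the 33 and for Ptprb, Slco1a4, Itm2a and Kdr, were chosen after seeing the data. No paired analysis was possible because the count columns carry animal tags and not the replicate numbers of the titles.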
